A study of Arabidopsis thaliana with 8 samples.

Results

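Line KO-40 is an Arabidopsis thaliana line labelled as a WRKY T-DNA knockout, and its rosettes were compared with rosettes of the reference accession Col-0. The line was represented by 1 of the 8 arrays of the study, the array titled with its name, and Col-0 by 2, titled Col-0-L and Col-0-S. The other 5 arrays held 1 further insertion line each (KO-02, KO-07, KO-54, KO-30 and KO-56). A T-DNA insertion is a stretch of foreign DNA that can disrupt the gene it lands in. The labels used here do not say which WRKY gene is hit in KO-40, whether other loci carry insertions, how many plants were pooled or what L and S stand for, so the targeted gene was not checked. All plants, Col-0 included, were 35 days old and starting to bolt, and grew in a chamber with 70% humidity, days of 22 °C and nights of 19 °C, on autoclaved turf, vermiculite and sand with slow-release fertiliser and the insecticide imidacloprid. The labels give 14 hours of light and 8 hours of dark. Whole rosettes were taken without stem and flowers. RNA was hybridised to ATH1 arrays, on which each probe set reports 1 transcript or a few related ones as a signal intensity.

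WRKY proteins are plant transcription factors that bind W-box elements in promoters. The group II-A members, which the title of the series names together with early leaf senescence, are known as regulators of defence gene expression. Plants defend leaves with antimicrobial peptides and cell wall degrading enzymes, and the jasmonate, ethylene and salicylic acid hormones switch on partly different sets of them. Defence and leaf senescence share many genes.

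With 1 array of the line, differences are described and not tested unless limma is named. A difference is KO-40 minus the mean of the Col-0 pair on the log2(signal + 5) scale, which understates changes of dim genes. A probe set counted as shifted where that difference was at least 2-fold (1 on the log2 scale) and larger than the difference within the Col-0 pair, so that KO-40 lay beyond both Col-0 arrays. Of 22746 probe sets, 277 (1.22%) were shifted higher and 155 (0.681%) lower in KO-40. Among the 15922 probe sets that passed a filter on dim signals, 165 (1.04%) were higher and 44 (0.276%) lower, 209 (1.31%) in all. That filter took the mean over all 8 arrays, KO-40 included. A rise in KO-40 therefore helped a probe set pass, and a fall hindered it. Under that filter there were 112 higher and 111 lower, though at the dimmest signals a lower shift cannot reach 2-fold on this scale. The excess of higher shifts depended on the constant added to the signal: with 1 in place of 5 there were 693 higher and 685 lower over all probe sets, and with 21 there were 85 and 8.

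The arrays could be compared one to one, which sets the Col-0 pair on the same footing as KO-40. Past the filter, KO-40 was at least 2-fold above Col-0-L for 246 probe sets and at least 2-fold below it for 63. Against Col-0-S the counts were 181 above and 68 below. Within the Col-0 pair, Col-0-L was above Col-0-S for 55 and below it for 73. On these probe sets the number below Col-0 was therefore close to that between the Col-0 arrays, and the number above was larger. Under the filter, KO-40 was above Col-0-L for 220 and below it for 283. Against Col-0-S it was above for 198 and below for 197. Within the pair, Col-0-L was above Col-0-S for 289 and below it for 234. No excess above Col-0 was thus seen among these dim probe sets. The SD of the differences past the filter was 0.37 and 0.35 for KO-40 against Col-0-L and Col-0-S, and 0.30 within the pair. Differences of at least 4-fold numbered 25 above and 5 below Col-0-L, 19 above and 3 below Col-0-S, and 1 above and 3 below within the pair.

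**Figure D1:**
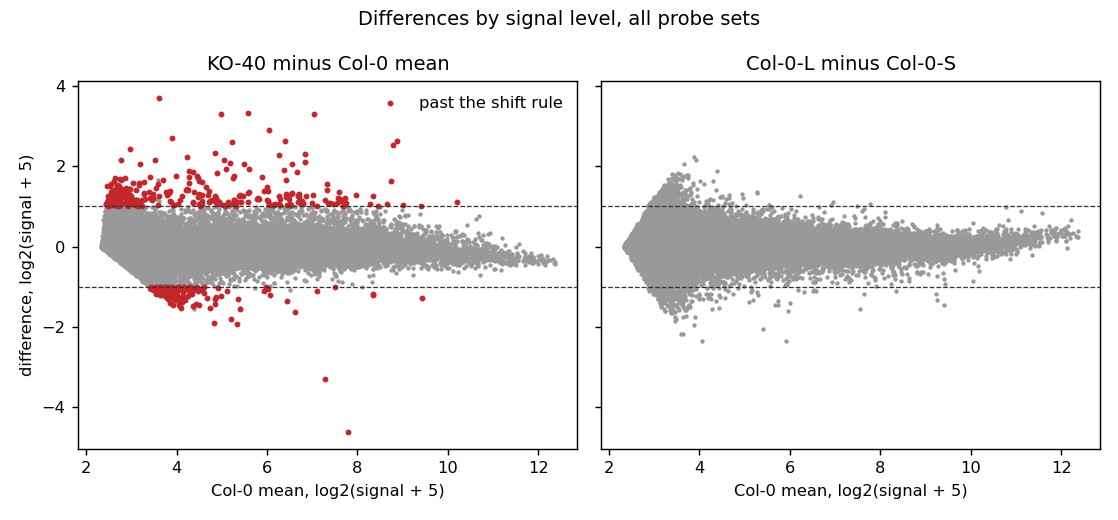
Each point is 1 of 22746 probe sets; the horizontal axis is the Col-0 mean on the log2(signal + 5) scale and the vertical axis the difference between KO-40 and the Col-0 mean (left) or between Col-0-L and Col-0-S (right), with dashed lines at a 2-fold difference. The 277 higher and 155 lower shifted probe sets of KO-40 are red, and above a Col-0 signal of 21.3 the red points lie mostly on the upper side.

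The higher shifts spread over most of the range of signal. In the decile of probe sets with Col-0 signals between 93.6 and 151, 18 were shifted higher and 1 lower, and in the next decile 14 higher and 3 lower. In the decile from 10.2 to 21.3, 32 were higher and 60 lower. In the dimmest and the second decile, with Col-0 signals up to 1.62 and 4.63, a lower shift cannot reach 2-fold on this scale. There 47 and 59 were higher and 0 lower. The brightest decile, above 303, was displaced as a whole: its median difference was -0.10 in KO-40, and 0.03 for Col-0-L minus Col-0-S. The brightest probe set reached 4099.9 on the KO-40 array, 6009.99 on Col-0-L and 4817 on Col-0-S, and the part of this in the values of bright genes was not tested.

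**Figure D2:**
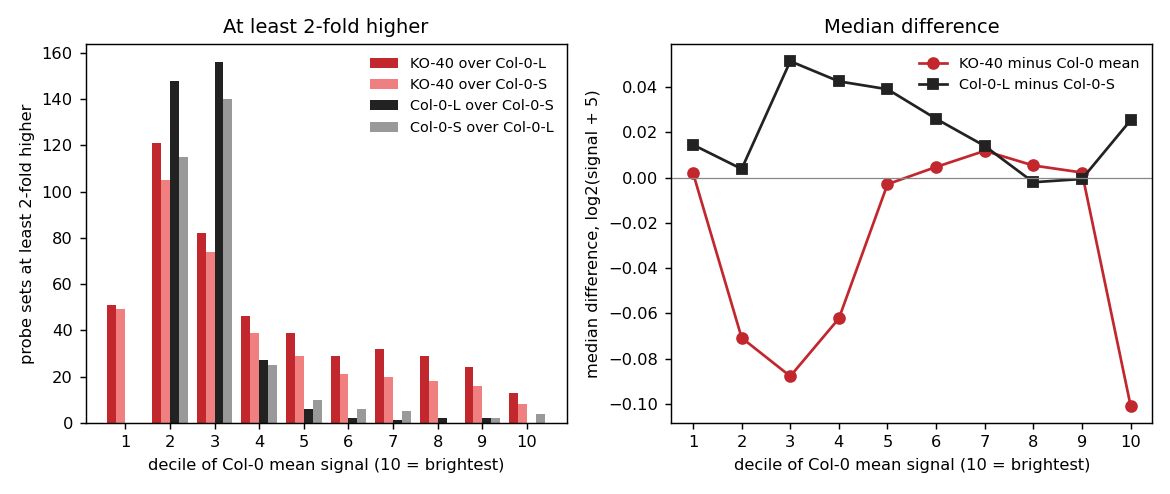
Left, the number of probe sets at least 2-fold higher in 1 array than in another, by decile of the Col-0 mean signal, for KO-40 over each Col-0 array and for the Col-0 arrays over each other; right, the median difference on the log2(signal + 5) scale by decile. From the fourth decile upward the KO-40 bars are above the Col-0 bars, and the median of KO-40 is -0.10 in the brightest decile.

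Array quality of KO-40 was close to that of Col-0. For the actin control, signal at the 3' end over that at the 5' end, a ratio that is high in degraded RNA, was 1.70 for KO-40, 2.00 for Col-0-L and 1.83 for Col-0-S, and ran from 1.76 to 3.72 in the other lines, highest in KO-54. Array medians were 38.7 for KO-40, 38.6 for Col-0-L and 37.2 for Col-0-S. Of 7 rosette leaf markers, 2 had a named probe set, and both were bright: Rubisco activase (RCA) had a signal of 2710 in KO-40 and 4030 and 3081 in the Col-0 pair, and the light-harvesting gene LHCB4.1 had 3442 against 4740 and 3958. None of the 9 flower and 6 root markers had a named probe set, so carry-over of these organs was not checked. In whole rosettes, fewer cells of a type and less RNA per cell cannot be told apart.

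Of the 15 named genes with the largest positive differences, OSM34, PDF1.2 and PDF1.2b encode antimicrobial proteins. OSM34, which encodes osmotin, a pathogenesis-related protein of the thaumatin family, had signals of 44.0 (Col-0-L), 41.3 (Col-0-S) and 471 (KO-40), a difference of 3.32. The plant defensin gene PDF1.2, the usual marker of joint jasmonate and ethylene signalling, had 368, 592 and 2945 on the same arrays, and PDF1.2b had 367, 512 and 2525. On all 3 probe sets KO-40 was far above both Col-0 arrays. The PDF1.2b probe set carries the suffix of sets that can cross-hybridise with related transcripts, so these defensin signals are not independent. PDF1.4, a further defensin gene, had 32.3, 28.4 and 71.8, a difference of 1.12, and was higher still in KO-54 at 76.8. The chitinase gene CHI, whose enzyme family cleaves fungal cell walls, had 671, 668 and 1361, a difference of 1.02 where the Col-0 pair differed by 0.01.

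The gene order of the TAIR10.1 table places CHI, AT2G43580 and AT2G43590 next to each other, and all 3 were shifted higher. AT2G43590 had signals of 65.3 in Col-0-L, 79.2 in Col-0-S and 372 in KO-40, a difference of 2.29. AT2G43580, which lay under the filter, had 6.27, 5.15 and 30.6. Across the other 5 lines AT2G43590 stayed between 67.8 and 127, so KO-40 stood alone on this probe set. Whether the 3 probe sets share sequence was not checked.

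CCOAMT, AMY1 and Prx37, also among the leading 15, encode enzymes. CCOAMT, named for caffeoyl-CoA 3-O-methyltransferase, an enzyme class of phenylpropanoid and lignin synthesis, had signals of 73.8 and 83.1 in the Col-0 pair and 307 in KO-40, a difference of 1.91. AMY1, an alpha-amylase gene for starch breakdown, had 107, 86.5 and 360, a difference of 1.85. The peroxidase gene Prx37 had 15.4, 19.2 and 67.6, a difference of 1.71. JRG21, whose name stands for jasmonate-regulated gene, had 20.99, 16.3 and 66.5, a difference of 1.60, and the beta-glucosidase gene BGLU31 had 17.8, 14.5 and 49.2, one of 1.36. For each of these 5 genes KO-40 was the highest of the 8 arrays.

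The reference tables used here name no product for the remaining leading genes, which are given by locus. AT4G16260 had signals of 118 in Col-0-L, 137 in Col-0-S and 1308 in KO-40, a difference of 3.31. AT3G23550 had 70.1, 52.5 and 490.4, a difference of 2.91. AT5G52390 and AT3G49340 differed by 2.64 and 2.61. Both Col-0 arrays and KO-30 lay together at the low end for these 4 genes, and KO-56 was beside them for AT5G52390 (91.6) and AT3G49340 (24.2). The further loci of the leading 15 were AT3G27400 and AT5G55420, each at 1.94, the second listed as a transcribed pseudogene, and AT1G26380 at 1.70. AT2G41800, at 2.70, was less certain, since the Col-0 pair itself had 3.13 (L) and 22.4 (S).

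**Figure D3:**
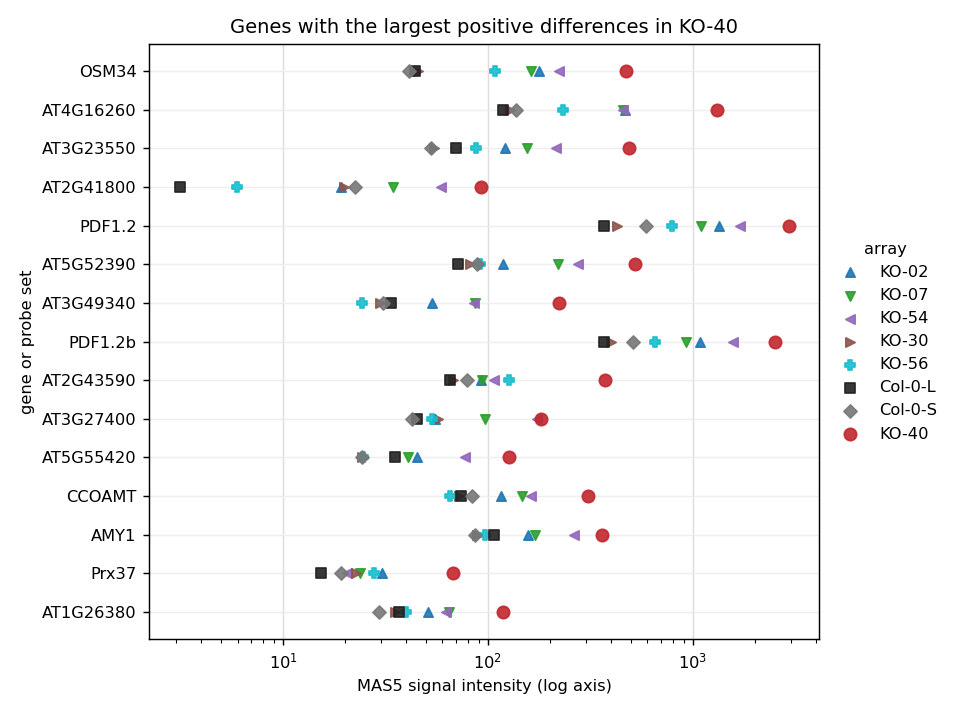
Signal intensity on a log axis, 1 row for each of the 15 genes with the largest positive differences in KO-40 and 1 symbol for each of the 8 arrays. The red KO-40 point is the highest in every row, and for OSM34 the Col-0 arrays sit at 44.0 and 41.3 with KO-40 at 471.

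The named genes with lower shifts had smaller differences than the leading higher ones, of -1.54 at most. BGLU47, a beta-glucosidase gene, had signals of 36.5 in Col-0-L, 38.8 in Col-0-S and 9.64 in KO-40, a difference of -1.54. SAG29 encodes the sugar transporter SWEET15 and is named for its association with senescence. It had 17.2, 32.1 and 6.68, a difference of -1.30 beside a gap of 0.74 within the Col-0 pair. KO-02, KO-07 and KO-54 had 10.3, 10.0 and 10.2 for SAG29, and KO-30 and KO-56 had 30.2 and 27.7. CHIL, a chalcone isomerase-like gene of flavonoid synthesis, had 29.8, 29.2 and 11.0, a difference of -1.11. JKD (JACKDAW), a zinc finger regulator best known from root patterning, had 12.8, 18.1 and 3.86, and KO-56 was lower still at 3.27. EXPA15, for an expansin that loosens cell walls, had 56.8, 62.6 and 26.1, a difference of -1.05, and KO-54 had 25.6. With a pseudocount of 21, BGLU47, SAG29, CHIL and JKD differed by -0.94, -0.70, -0.66 and -0.55, all under 2-fold.

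Among the loci without a named product in the 15 largest lower shifts, differences ran from -1.53 for AT2G30540 to -1.09 for AT2G15500. Between them lay AT1G20070 (-1.31), AT1G72250 (-1.27), AT1G47400 (-1.26), AT4G29270 (-1.25), AT4G33380 (-1.21), AT1G12630 (-1.16), AT1G44970 (-1.13), AT1G62500 (-1.12) and AT1G68700 (-1.11). Within these leading loci AT4G33380 and AT1G62500 were the brightest, with 286 and 359 in the Col-0 pair against 135 in KO-40, and 114 and 153 against 58.2. For AT1G62500 KO-56 was lower still, at 37.3, and for AT4G33380 KO-30 was level with KO-40, at 134. AT1G47400 had 26.2 and 22.9 in the Col-0 pair, 7.29 in KO-40 and 7.67 to 13.1 in the other 5 lines. The median Col-0 signal of the 44 lower probe sets was 24.1, and that of the 165 higher ones 38.1. Just past the size limit were AT4G27300 at 1.00 and AT3G29120 at -1.01, and just short of it WRKY6 at 0.997 and AT3G59780 at -0.996.

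The largest negative differences of all belonged to probe sets that the platform annotation does not list, chosen here after their values were seen. The signal of 253485_at was 168 in Col-0-L, 278 in Col-0-S and 3.98 in KO-40, a difference of -4.62. It was also low in KO-07 at 1.44 and in KO-54 at 19.1, while KO-02, KO-56 and KO-30 had 259, 249 and 380.1. The signal of 261892_at was 139, 166 and 10.9 on the same arrays, a difference of -3.30. It was low in KO-02 too, at 17.2, and lay between 123 and 259 in the other 4 lines. KO-40 was the only array of the 8 on which both probe sets were below 20. Which genes they report was not established, so whether either reads a gene hit by an insertion, rather than a transcript elsewhere in the genome, was not checked. In the opposite direction the unlisted 247573_at had 11.0 and 4.32 in the Col-0 pair and 155 in KO-40 (3.71), and 252265_at had 17.3, 39.3 and 304 (3.30). Of the shifted probe sets past the filter, 81 of the 165 higher and 21 of the 44 lower ones were unlisted. Those paired with 1 gene numbered 76 and 23. Of all 15922 probe sets past the filter, 8750 were paired with 1 gene, and of all 22746 probe sets 8730 were unlisted.

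**Figure D4:**
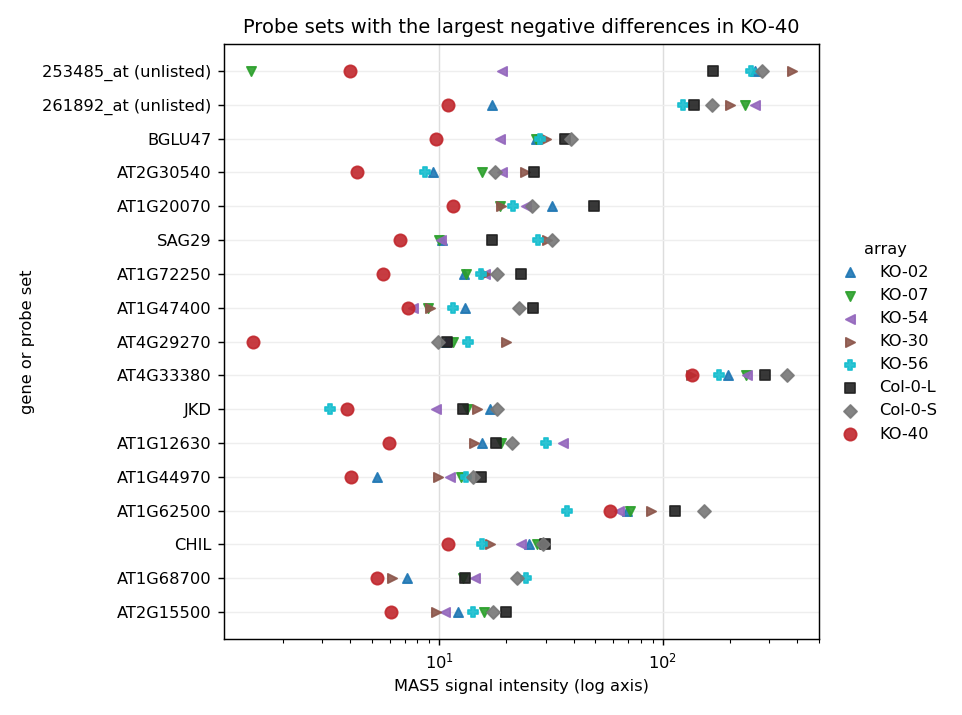
Signal intensity on a log axis for the 2 unlisted probe sets with the largest negative differences and the 15 named genes with the largest negative differences in KO-40, with 1 symbol per array. For 253485_at the points split into KO-40, KO-07 and KO-54 at 1.44 to 19.1 and the other 5 arrays at 168 and above.

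Gene lists were described by counts, beside the 15922 probe sets past the filter, whose median difference was -0.01. Of these, 33.4% lay above and 37.0% below both Col-0 arrays. Positive differences numbered 7652 and negative ones 8270. Of 21 genes listed for jasmonate and ethylene defence, 6 had a named probe set and 5 passed the filter, all but LCR67. PDF1.2, PDF1.2b and PDF1.4 of these 5 were shifted higher and none lower (median 1.12). The thionin gene THI2.2, for an antimicrobial peptide, went the other way with 86.1 and 66.2 in the Col-0 pair and 44.9 in KO-40 (-0.69). In the other 5 lines THI2.2 lay between 37.8 and 61.8. THI2.1 had 48.8, 83.0 and 73.5 in Col-0-L, Col-0-S and KO-40. The defensin and cysteine-rich peptide family, drawn from symbols after the values were seen, had 3 of 5 members shifted higher, the same 3 genes, while LCR68 and LCR69 had -0.24 and -0.32.

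In the leaf senescence list (5 of 19 genes with a named probe set, median 0.84) no such member was shifted higher and SAG29 was shifted lower. SAG101, an acyl hydrolase that acts with EDS1 in immunity, had 52.5 and 63.5 in the Col-0 pair and 107 in KO-40 (0.84). WRKY53, a promoter of leaf senescence, had 211, 190 and 387 (0.94), and WRKY6 had 30.05, 31.2 and 66.1. Of 6 WRKY genes with a named probe set, 5 passed the filter, 4 of them lay above both Col-0 arrays and none reached the 2-fold limit (median 0.47). Any WRKY genes read by unlisted probe sets were not covered, so these counts do not describe the whole family. WRKY47 differed by 0.47, WRKY22 by 0.12 and WRKY20 by 0.03. WRKY42 lay under the filter.

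Calcium sensor genes of the calmodulin-like family had 2 of 7 members shifted higher. CML41 had 39.9 in Col-0-L, 62.5 in Col-0-S and 120 in KO-40 (1.18), and CML37 had 26.1, 32.4 and 64.7 (1.03). CML38 and CML42 lay above both Col-0 arrays at 0.90 and 0.50, and CML30 lay below them at -0.45 (median 0.50). Of the plant U-box ubiquitin ligase genes, a family added after the values were seen, 1 of 8 was shifted. This was PUB23, which is known to dampen immune signalling, with 27.8, 27.6 and 61.8. Its relatives PUB24 and PUB22 differed by 0.73 and -0.09 (list median -0.03).

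Enzyme families of small-molecule metabolism gave few shifts. UDP-glycosyltransferases attach sugars to hormones and defence compounds. Of 28 such genes past the filter, 1 was shifted, UGT73D1, with 22.8, 15.1 and 46.7 (list median 0.09). UGT71C3, under the filter, was also shifted higher, with 4.93 and 7.08 in the Col-0 pair and 19.4 in KO-40. In the CYP71B group of cytochrome P450 genes 7 of 11 members lay above both Col-0 arrays and 0 passed the 2-fold limit. CYP71B22 came closest, with 86.3 and 88.2 in the Col-0 pair and 178 in KO-40 (0.99), and CYP71B23 had 0.90 (list median 0.23). Of 9 glutathione S-transferase genes, whose enzymes conjugate toxic compounds, 6 had KO-40 below the Col-0 pair and none was shifted (median -0.15). Among beta-glucosidase genes, a family also added after the values were seen, BGLU31 and BGLU47 were shifted in opposite directions. The median of 11 members was -0.10, or -0.04 under quantile normalization.

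All 8 named nuclear genes of the photosystems, antennae and Rubisco activase had negative differences, 7 of them below both Col-0 arrays (median -0.32). For PSAN, a photosystem I subunit, the signals were 3112 in Col-0-L, 2482 in Col-0-S and 2069 in KO-40. The median gap between the Col-0 arrays over these genes was 0.27, close to the size of the difference itself, and the genes lie in the brightest decile described above. Under quantile normalization over the 8 arrays the list median was -0.08, and with Col-0-S alone as the control it was -0.19. Plastid-encoded genes had 53 of 69 members with negative differences, 37 below both Col-0 arrays and none shifted (median -0.13), and under quantile normalization their median was -0.00875. Chlorophyll synthesis was represented by PORB at -0.46 and CHLM at -0.45. Of 16 expansin and XTH genes, which remodel growing walls, 9 lay below both Col-0 arrays and EXPA15 alone was shifted (median -0.19), with XTH32 at 297, 301 and 178 (-0.73).

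Of 5 cold and abscisic acid response genes, 4 lay below both Col-0 arrays in KO-40 without reaching the 2-fold limit. COR15A, encoding a chloroplast protein induced by cold, had 1898 in Col-0-L, 1989 in Col-0-S and 1417 in KO-40 (-0.45), and COR47, LTI30 and COR15B had -0.33, -0.33 and -0.25. These 4 lie in the brightest decile too, and the list median of -0.33 was -0.19 under quantile normalization. STZ, a zinc finger repressor that responds to many stresses, was grouped with them and went the other way, with 459, 549.7 and 952 (0.92). The autophagy genes, mostly of the ATG8 family that coats autophagosomes, all had positive differences, 8 of 10 above both Col-0 arrays and none shifted (median 0.20). The largest were ATG8E at 0.49 and APG8A at 0.44, and for both KO-54 and KO-30 were higher still. ATG8E had 262 in KO-40, 299 in KO-54 and 296 in KO-30. APG8A had 357, 459 and 403 on the same arrays.

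**Figure D5:**
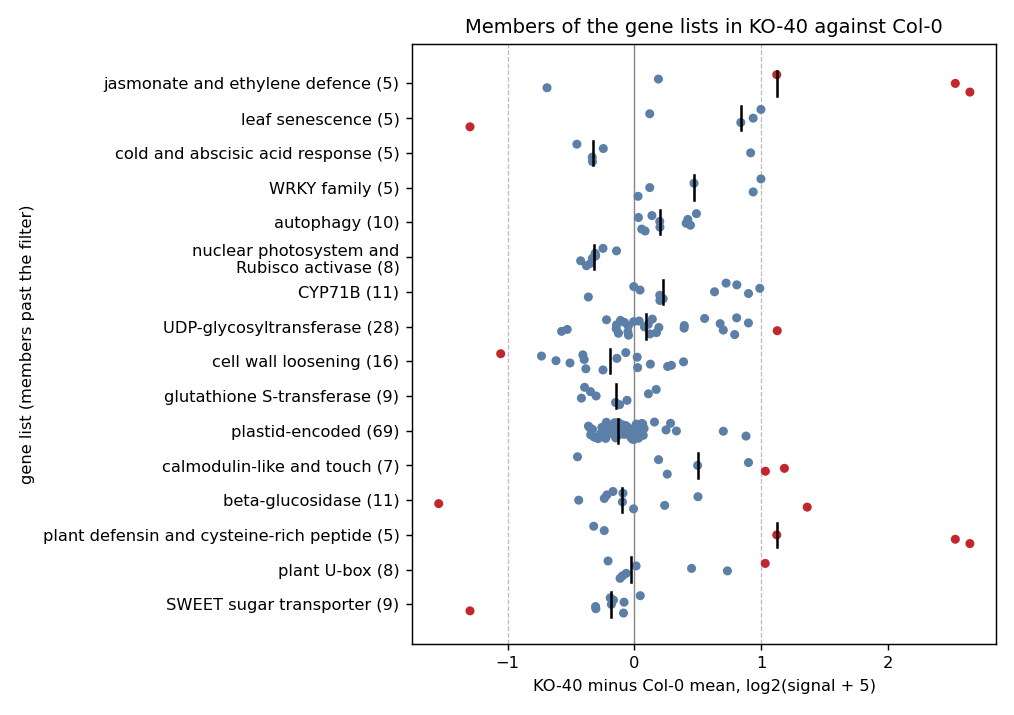
Each point is 1 gene list member past the filter; the horizontal axis is its difference between KO-40 and the Col-0 mean on the log2(signal + 5) scale, and the black bar is the list median. Red points are members past the shift rule, such as PDF1.2 at 2.64 and SAG29 at -1.30, and most other members lie within 2-fold of Col-0.

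The other 5 lines were set beside KO-40 on the probe sets that were shifted in it. These were chosen for their values in KO-40 and all lines share the Col-0 pair, so the medians and ranks are descriptive. Over the 165 higher probe sets, the median difference from Col-0 was 1.24 in KO-40, 0.76 in KO-54, 0.62 in KO-07, 0.45 in KO-02, 0.17 in KO-56 and 0.09 in KO-30, while over all probe sets past the filter it lay between -0.03 and 0.01 in every line. KO-40 had the highest signal of the 8 arrays on 152 of the 165, a rank that this choice favoured. For PDF1.2 the signals were 1706 in KO-54, 1344 in KO-02, 1092 in KO-07, 795 in KO-56 and 425 in KO-30, and for OSM34 223, 178, 163, 108 and 45.4 in the same order. The 44 lower probe sets lay closer together in the other lines, with medians from -0.48 in KO-54 to -0.33 in KO-56 and -1.17 in KO-40. Counted by the same rule past the filter, the other lines had 13 to 85 probe sets shifted higher and 17 to 153 lower. Over all probe sets KO-56 had more shifted higher than KO-40, 345, of which 303 lay under the filter.

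limma, which borrows the spread of the Col-0 pair and of the other 5 lines for the lone KO-40 array, called 0 of 15922 probe sets (0.0%) against Col-0 at an adjusted p under 0.05. At an unadjusted p under 0.05 there were 1064 (6.68%), 631 higher and 433 lower. The smallest adjusted p in limma was 0.160, reached by AT2G43590 (difference 2.29 ± 0.30, SE) and Prx37 (1.71 ± 0.22), and BGLU47 had 0.161 (-1.54 ± 0.24). OSM34 had an adjusted p of 0.376 in limma with a difference of 3.32 ± 0.71, and PDF1.2 had 0.436 with 2.64 ± 0.67. The other 5 lines enter the spread in limma beside Col-0, and for OSM34 and PDF1.2 those lines lay from the Col-0 level to several times above it. Without KO-30, limma called 3 probe sets (AT2G43590, AT2G43580 and the unlisted 260101_at), and without KO-56 it called 1, the unlisted 247026_at. Against the other 5 lines limma called 0 probe sets (0.0%), with 626 (3.93%) at an unadjusted p under 0.05, and the smallest adjusted p was 0.306, reached by AT2G43590 (1.90 ± 0.27) and Prx37 (1.28 ± 0.20).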

How the data were processed

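The deposited values are linear signal intensities of 22810 probe sets. MAS5 is named, without a version, per the submitters' processing notes. With the lowest and highest 2% left out, the 8 arrays had the same mean deposited intensity (100.01), and the authors' scaling was kept. After removal of 64 controls, log2 was taken with a pseudocount of 5. The filter kept probe sets with a mean log2 value over all 8 arrays, KO-40 included, above the 30th percentile. The platform annotation pairs 13513 probe sets with 1 gene and 503 with several and leaves 8730 unlisted. Symbols came from the TAIR10.1 gene table, which held 13436. Named genes were the 15 largest shifts per direction past the filter with 1 gene, and list members past the shift rule, up to 4 per list. Other members and every unlisted probe set were named after their values were seen. Members and lists were chosen with earlier results of these data known. The 4 symbol families of beta-glucosidases, defensins and cysteine-rich peptides, U-box ligases and SWEET transporters were added later, after the values were seen. Promoter motifs were not searched. Lists for camalexin and indolic glucosinolates, flowering, heat shock, cytosolic ribosomal proteins, aquaporins and mitochondrial genes had no named probe set. Plastid genes were taken by chromosome.

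limma 3.58.1 in R 4.3.3 was fitted with 3 levels (KO-40, Col-0, other lines) and 5 residual degrees of freedom, with Benjamini-Hochberg adjustment. It assumes that KO-40 varies like the other arrays. Its spread holds differences among the other 5 lines, and the labels do not say whether arrays came from separate cultures. The number of arrays limits the precision. Tested on simulated data of 15922 probe sets for KO-40 against Col-0, limma recovered 36 of 100 changes of 2-fold and 89 of 100 of 4-fold, with 3 false calls. The simulated arrays had independent normal noise around the Col-0 mean and no differences among the other lines. These rates therefore need not hold for the real arrays. Alternatives were other pseudocounts, filters, fold limits, scalings and variance models, and leaving out arrays.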

Additional observations from a re-analysis of the deposited data

How the results depend on the processing

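The counts of shifted probe sets (277 higher, 155 lower) depended on how dim signals were treated. They were 165 and 44 past the 30th percentile filter, 103 and 12 past the median, 85 and 8 with a pseudocount of 21, and 693 and 685 with a pseudocount of 1, where the excess of higher shifts was no longer seen. A 1.5-fold limit gave 1052 and 771 and a 4-fold limit 23 and 2. With 1 Col-0 array as the control and no pair to compare, they ran from 379 (without Col-0-L) to 466 (without Col-0-S) higher and from 265 to 346 lower. Quantile normalization (284 and 125) and median centring (261 and 183) stayed within 1.5 times. limma against Col-0 called 4 probe sets with a pseudocount of 21 (AT2G43590, Prx37 and the unlisted 252265_at and 260101_at) and 1 with trended and robust variances (AT2G43590). Leaving out 1 array gave 0 to 3 calls: 3 without KO-30 (AT2G43590, AT2G43580 and 260101_at), 1 without KO-56 (the unlisted 247026_at) and 0 without each of the others. Against the other 5 lines limma called 2 with a pseudocount of 21 (AT2G43590 and 252265_at) and 0 to 0 when 1 array was left out. The 30 named genes kept their sign under all 6 settings tried on them. For the other pseudocounts and for leaving out a Col-0 array the shift rule fixed this outcome, since KO-40 lay beyond both Col-0 arrays. All 15 higher genes stayed at least 2-fold, as did 1 of the 15 lower genes (AT4G33380). Quantile normalization brought the medians of the nuclear photosystem, plastid-encoded, cold and beta-glucosidase genes nearer to 0 by more than 1.5 times (-0.08, -0.00875, -0.19 and -0.04). Of 16 list medians, that of the plant U-box genes changed sign, to 0.13 without Col-0-S. The cause was not tested. No paired analysis was possible because each line has 1 array and the groups share fewer than 2 replicate numbers.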

Other observations

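Several genes outside the leading 15 were shifted in KO-40 and also stood high in another line. QQS, named for a starch phenotype, had signals of 165 and 137 in the Col-0 pair and 340.4 in KO-40, and was higher still in KO-02 at 510.1, while KO-07 and KO-30 had 93.1 and 86.8. SUFE2, for a sulfur-transfer protein, had 80.6, 89.7 and 181, with 198 in KO-54. The neighbouring loci AT1G72240 and AT1G72250 were shifted in opposite directions, the first to 70.2 from 26.2 and 36.6, the second to 5.60 from 23.1 and 18.2. AT4G12490 and AT4G12500, with 1 gene between them, were both higher, at 197 against 91.2 and 77.8 and at 59.2 against 17.7 and 25.1. These genes were chosen after their values were seen.

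Lists with fewer than 3 named probe sets gave single values. Of the salicylic acid list, GRX480, a glutaredoxin gene, had 62.8 and 59.3 in the Col-0 pair and 115 in KO-40 (0.86), beside SAG101. The anthocyanin genes UF3GT and DFR differed by 0.57 and 0.05, the glucosinolate genes BCAT4 and AT2G31790 both by -0.38, the clock gene GI by -0.06 and EXO of the sugar starvation list by 0.52, where the Col-0 pair itself had 378 (L) and 957 (S). The SWEET transporter genes, a family added after the values were seen, had 8 of 9 negative differences with SAG29 included (median -0.18). Under the filter, AT2G22880 had 2.76 and 0.932 in the Col-0 pair and 25.3 in KO-40, with 28.7 in KO-54, and AT5G24240 had 16.5 in KO-40 and between 0.562 and 1.94 on the other 7 arrays.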
